A study of Hordeum vulgare with 12 samples.

Results

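Small RNAs that match a microRNA (miRNA) entry of miRBase were compared between roots and shoots of barley grown with sufficient phosphate (Pi). The comparison used 6 of the 12 small RNA libraries of the series, 3 from roots and 3 from shoots. All 6 came from the barley line Rolap at 23 days of age, grown in soil with 8 mg P/kg to which 60 mg P/kg had been added. A replicate was a pot of 3 plants, so each library pools plants, and whole organs were ground, so fewer cells of a type and less RNA per cell cannot be told apart. Libraries are called by their numbers in the labels, 16, 17 and 18 in each organ, and neither the labels nor the methods say that a shared number marks a shared pot.

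The authors' tables list each distinct read of 18 to 25 nucleotides (nt) with a perfect match to a plant miRNA or its hairpin. Reads labelled there as precursor matches were not labelled as a mature miRNA or its length variant, though they may overlap the mature miRNA. Joined by sequence, 3812 sequences of the root table and 4430 of the shoot table gave 6279, of which 1963 stood in both. In the 6 Pi-sufficient libraries 4210 sequences had a read, 1318 of them in both organs, and they fell into 178 families by the number in the miRNA name. A name is that of the matched species, often the wheat relative Aegilops tauschii, so a letter after the number need not be the barley gene's own. Of these, 65 families and 404 sequences had enough reads to be tested. Levels are RPM, reads in every 1000000 kept reads of the library. These totals were between 7470998 and 11434616 in roots and between 10640396 and 13414482 in shoots. A count of 3 reads over the 3 libraries of an organ, taken as the limit of detection, was 0.111 RPM in roots and 0.0826 RPM in shoots, for counting error only.

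Plant miRNAs are cut by Dicer-like enzymes out of a folded precursor, from its 5′ or its 3′ arm, and guide ARGONAUTE proteins to complementary mRNAs. The strand that is loaded is the guide, and its partner from the other arm is usually degraded. Most old families direct the cleavage of mRNAs for transcription factors of leaf, root and meristem development, while others act in the supply of phosphate, copper and nitrogen. Members of a family come from several genes and can differ by a base or by a shift of an end. In these libraries such members were often divided unequally between the organs.

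The sequences on which the results turn are given here from the deposited tables as DNA letters, 5′ to 3′, with the seed, bases 2 to 8, in capitals. The first set shows pairs of members of 1 family that were divided unequally between root and shoot.
miR171a, 3′ arm: tGAGCCGAaccaatatcactc
miR171d, 5′ arm: tGTTGGCTcgactcactcaga
miR167b/d, 5′ arm: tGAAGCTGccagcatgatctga
miR167f, 5′ arm: tGAAGCTGccagcatgatctgc
miR319 main form: cTTGGACTgaagggtgctccct
miR319 variant form: cTTGGACTgaagggagctccct
miR160a/b/c, 5′ arm: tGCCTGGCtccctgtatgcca
miR160e, 5′ arm: tGCCTGGCtccctgaatgcca
miR156q/s, 5′ arm: tGACAGAAgagagtgagcact
miR156k/n/o, 5′ arm: tTGACAGAagagagtgagcac
miR444a/e, precursor match: cAAGTTATgcagttgctgcct
miR444c, precursor match: cGGCAAGCtagagacagcaac
Counting from 1 at the 5′ end, miR167b/d differs from miR167f by C22A, the miR319 variant from the main form by T15A and miR160a/b/c from miR160e by A15T. The second set holds 4 abundant reads of nearly the same bases that carry 3 family names.
miR166p, starting 1 base earlier: tTCGGACCaggcttcattccc
miR166m: tCGGACCAggcttcattccct
miR165a/b: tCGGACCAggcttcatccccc
miR5168: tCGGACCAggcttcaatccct
From miR5168 to miR166m the change is A16T, and from miR166m to miR165a/b the changes are T17C and T21C. These 3 share the seed, while in miR166p the extra first base shifts it. The third set shows full and shortened reads of miR168 and miR159 and the main read of miR6300, the most abundant of the families higher in roots.
miR168: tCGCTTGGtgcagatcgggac
miR168, shortened: tCGCTTGGtgcagatcggg
miR159b: tTTGGATTgaagggagctctg
miR159, shortened: tTTGGATTgaagggagct
miR6300: gTCGTTGTagtatagtgg

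Reads matching miRBase were a smaller part of the root libraries. They were 1.91, 1.61 and 1.70% of reads in roots 16, 17 and 18, against 6.39, 6.32 and 5.53% in shoots, means of 1.74 ± 0.15% and 6.08 ± 0.48% (SD, n = 3 each). The organs did not overlap, and the exact two-sided permutation test gave p = 0.1, the smallest value that 3 against 3 allows. Every such test of a share below is limited in the same way. Likewise, the level of a typical family relative to the library total was lower in roots, and the median over the 65 families tested was a log2 root over shoot of -1.98. With TMM factors, a scaling that centres the bulk of the families, the median was -0.13. Both scales are therefore given, and a family is described as organ-biased beyond the general gap only where both scales called it in the same direction.

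**Figure D1:**
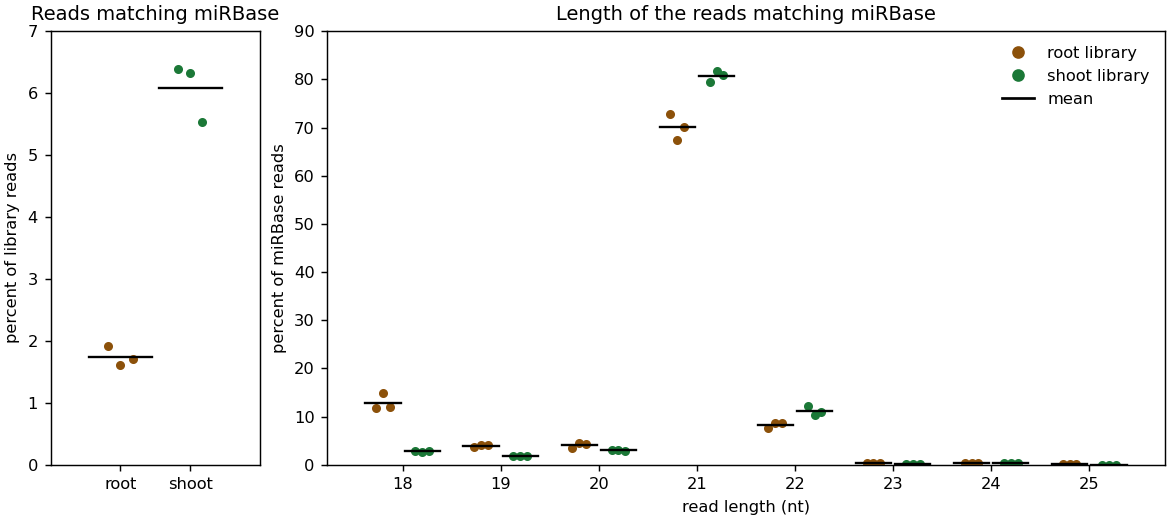
Left, reads matching miRBase as a percent of all library reads. Right, their length as a percent of miRBase reads at each length in nt. Points are libraries (3 root, brown, left; 3 shoot, green, right) and lines are means. Root libraries sit between 1.61 and 1.91% on the left, shoot libraries between 5.53 and 6.39%, and roots hold more reads of 18 nt and fewer of 21 nt.

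The lengths of the reads were also compared. Reads of 21 nt, the usual product of the enzyme that makes most plant miRNAs, were 70.1 ± 2.7% of miRBase reads in roots and 80.7 ± 1.1% in shoots, and reads of 22 nt were 8.27 ± 0.63% in roots and 11.2 ± 1.0% in shoots (SD, n = 3 each). Reads of 18 nt were 12.8 ± 1.7% in roots and 2.76 ± 0.16% in shoots. Reads of 25 nt were 0.165% in roots and 0.0316% in shoots, and those of 23 nt also had their larger share in every root library. Of the 8 lengths compared 7 did not overlap, each with an adjusted exact permutation p of 0.114 (n = 3 each). Reads beginning with T (U in the RNA), the base that the main ARGONAUTE of plant miRNAs prefers, were 78.7 ± 2.7% in roots and 86.4 ± 0.7% in shoots, and reads beginning with G were 11.4 ± 1.9% in roots and 2.06 ± 0.03% in shoots. Much of this moved with a few names: a hand-made list of 12 families whose entries are thought to resemble pieces of tRNA or rRNA, 9 of them with reads here, held 12.3 ± 1.8% of miRBase reads in roots and 0.871 ± 0.146% in shoots. miR6300 alone, whose reads are mostly 18 nt and begin with G, held 9.03 ± 1.98% in roots and 0.150 ± 0.049% in shoots. Without the list the excess of roots at 18 nt was 1.33 percentage points in place of 10.1, the difference at 21 nt was -1.66 points in place of -10.6, and the share of reads beginning with T was 0.681 points higher in roots in place of 7.75 lower. No sequence of tRNA or rRNA was compared with these reads. Exact matches to a mature miRNA were 50.9 ± 1.8% in roots and 50.6 ± 2.4% in shoots and overlapped, as did reads matching barley's own entries, with 11.2 ± 2.1% in roots and 9.59 ± 0.75% in shoots.

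Of the 65 families tested, 46 (70.8%) were lower and 15 (23.1%) higher in roots per library total at an adjusted p under 0.05 in edgeR's quasi-likelihood test. With TMM factors 18 (27.7%) were lower and 24 (36.9%) higher. All 15 families that were higher per library total were also higher with TMM factors, and all 18 that were lower with TMM factors were also lower per library total. In RPM, 62 of the 65 families (95.4%) had no overlap between the 3 root and the 3 shoot libraries. The 15 families higher per library total were 5 with mature matches only, 6 at a minimum count of 50 and 8 with sequences listed in both tables. For 11 of the families 1 organ had 1 to 3 reads in all, and their fitted log2 values depend on the prior count.

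**Figure D2:**
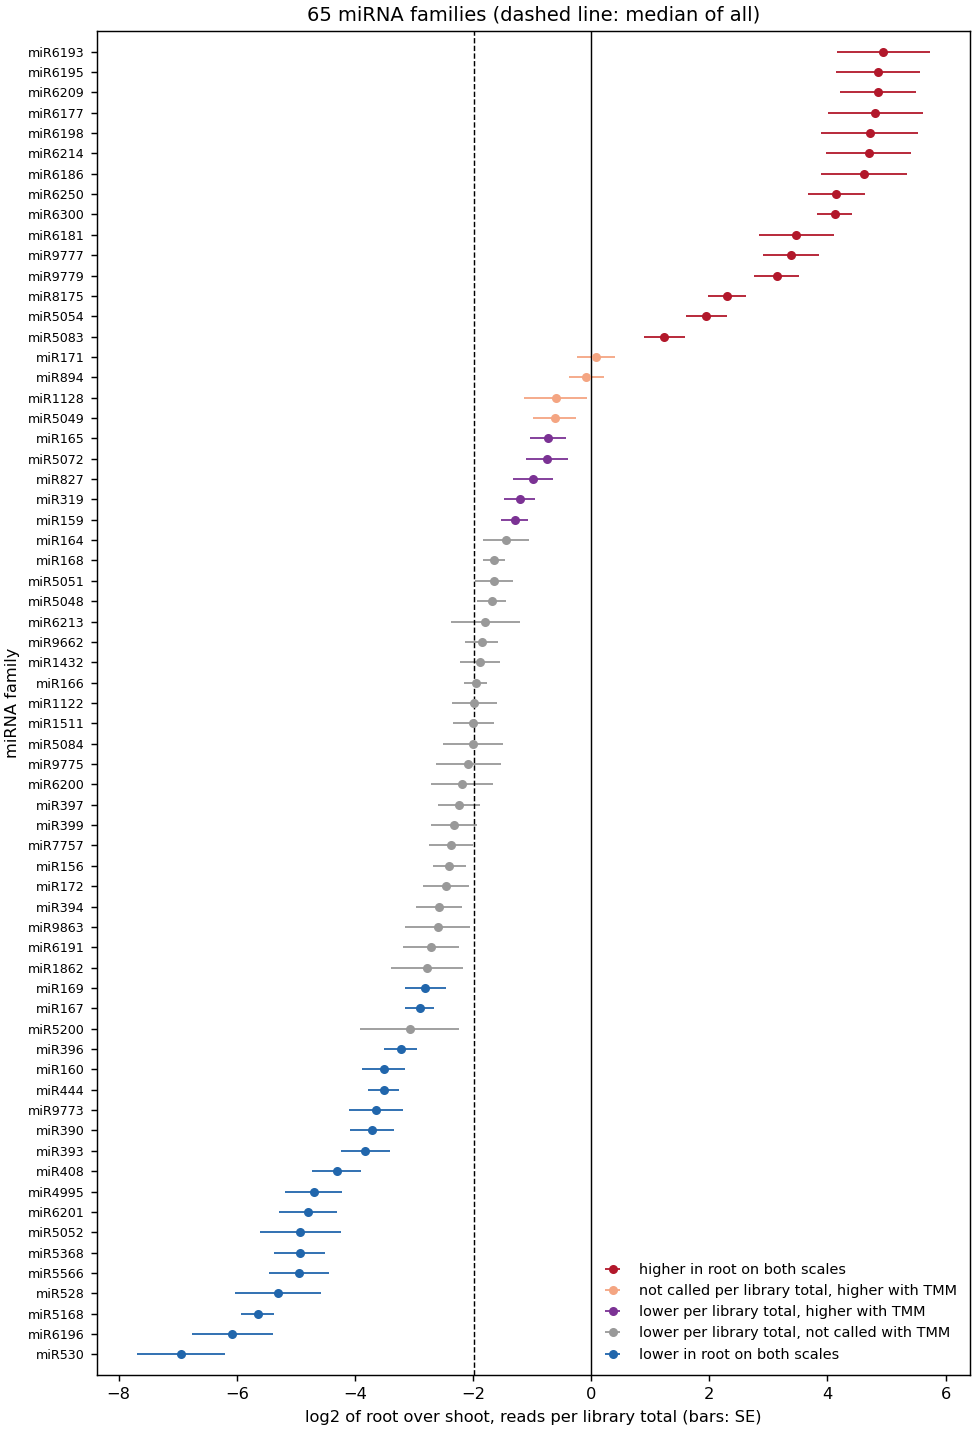
Each row is 1 of the 65 families tested, and the x axis is its log2 of root over shoot per library total with its SE. Colours give the call on both scales, the solid line is no difference and the dashed line the median of -1.98. The 18 families lower in roots on both scales lie left of the dashed line, from miR169 to miR530, and the 15 higher on both lie right of 0, from miR5083 to miR6193.

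miR166 and miR168 were the most abundant families in both organs. miR166, which targets HD-ZIP III transcription factors of organ polarity and vascular patterning, had 6025, 4984 and 4592 RPM in roots 16, 17 and 18, against 19901, 21003 and 19688 RPM in shoots. miR168, which targets ARGONAUTE1 itself, had 6273, 4631 and 5670 RPM in roots, against 18178, 19070 and 14601 RPM in shoots. Both were lower in roots per library total, by log2 values of -1.96 ± 0.19 and -1.65 ± 0.19 (SE, adjusted p = 6.4e-20 and 3.9e-15, edgeR). With TMM factors neither was called, at log2 values of -0.11 and 0.20, so neither was called beyond the general gap. miR162, which targets DICER-LIKE1, had 1 read in the 6 libraries. A list of 3 families that start phased siRNAs from a 22 nt guide had 1 family with reads, miR482, with 2. That list was made by hand and need not hold every such family.

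Of the 4 polarity and leaf shape families, all were lower in roots per library total, none was lower with TMM factors and 3 were higher with them. Over all 65 families 70.8% were lower per library total, and 27.7% were lower and 36.9% higher with TMM factors. The list's median log2 was -1.25, against -1.98 over all 65. miR165, a close relative of miR166 with the same kind of target, had 121, 163 and 162 RPM in roots, against 237, 235 and 272 RPM in shoots. miR159, which targets GAMYB transcription factors, had 1866, 982 and 1500 RPM in roots, against 4031, 3457 and 3164 RPM in shoots. Of miR159 reads 24.0% in roots and 9.32% in shoots were labelled as precursor matches. miR319, which targets TCP transcription factors of leaf growth, had 456, 471 and 476 RPM in roots, against 1405, 1085 and 757 RPM in shoots. The log2 values of miR165, miR159 and miR319 were -0.73 ± 0.30, -1.29 ± 0.23 and -1.21 ± 0.26 per library total and 1.10, 0.54 and 0.66 with TMM factors. Their direction therefore depended on the scale, and miR165 lost its call per library total without shoot 18 (log2 -0.66).

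miR5168, whose main read differs from miR166m by a single base, was the abundant family with the widest gap. It had 75.5, 98.5 and 122 RPM in roots, against 5153, 5205 and 4503 RPM in shoots, so that its mean was 50.2-fold higher in shoots. The log2 root over shoot was -5.65 ± 0.28 (SE, adjusted p = 2.3e-54, edgeR) and -3.81 with TMM factors. Of the reads named miR165, miR166 or miR5168 together, miR5168 made up 1.87 ± 0.65% in roots and 19.5 ± 1.0% in shoots. The main miR5168 read had 60.8, 76.3 and 95.4 RPM in roots, against 4148, 4126 and 3586 RPM in shoots. Its neighbour miR166m had 17.2, 20.6 and 21 RPM in roots, against 424, 357 and 373 RPM in shoots, and fell within its own family (log2 of -2.33 relative to the family, adjusted p = 2.8e-10, edgeR). The leading read of that family, miR166p, had 5705, 4590 and 4234 RPM in roots, against 18772, 19943 and 18659 RPM in shoots, and was not called within it (log2 of -0.02). Of the 6 largest falls among all sequences 4 were further miR5168 reads, with log2 values between -6.10 and -5.95, one of them from the 5′ arm with 0.437, 0.124 and 0.535 RPM in roots, against 24.6, 32.7 and 19.3 RPM in shoots. Summed by seed over all names, reads with the seed of miR5168, miR166m and miR165 were at 317, 397 and 384 RPM in roots, against 5646, 5619 and 5039 RPM in shoots. Reads with the shifted seed of miR166p were at 5780, 4683 and 4321 RPM in roots, against 18953, 20111 and 18821 RPM in shoots. The seed sums were made after the data were seen and carry no test. The form of miR166m with T21C alone was not among the sequences at 5 RPM or more. Reads that differ from it by a single base were, as were 22 nt reads that extend it by a base. Why it was missing was not tested. These sums and shares, and the leading read and level of miR166, therefore hold only for the reads listed. The same limit applies to the miRBase shares of the libraries and to the length shares.

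All 4 auxin families were lower in roots on both scales, where 70.8% of all 65 families were lower per library total and 27.7% on both. Their median log2 was -3.61 per library total. They act on auxin receptors and on auxin response factors, directly or through trans-acting siRNAs. miR160, which targets repressive auxin response factors, had 5.86, 10.01 and 12.05 RPM in roots, against 121, 119 and 77.9 RPM in shoots (log2 -3.52 ± 0.37, adjusted p = 3.9e-18, edgeR). miR167, which targets activating auxin response factors, had 363, 643 and 600.3 RPM in roots, against 4917, 3838 and 3272 RPM in shoots (log2 -2.91 ± 0.25, adjusted p = 5.9e-25, edgeR). miR390, which starts the siRNAs against another group of these factors, had 4.64, 8.40 and 5.49 RPM in roots, against 81.8, 76.7 and 83.0 RPM in shoots. miR393, which targets the TIR1 class of auxin receptors, had 1.40, 1.85 and 2.54 RPM in roots, against 34.8, 26.2 and 20.1 RPM in shoots. With TMM factors the 4 log2 values were -1.66, -1.03, -1.85 and -1.98, in the same order. Of miR160 reads 22.7% in roots and 65.4% in shoots were labelled as precursor matches. For miR393 these shares were 72.0% in roots and 49.7% in shoots, and for miR167 and miR390 at most 2.15% in either organ. The levels of miR160 and miR393 are therefore not those of mature reads alone.

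**Figure D3:**
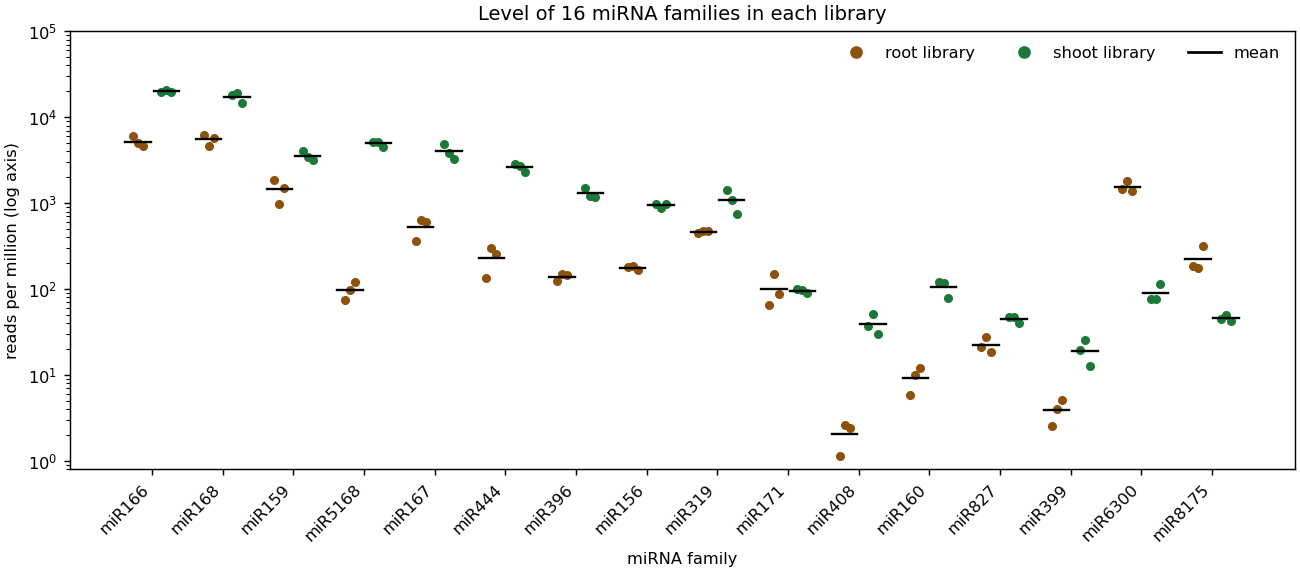
Level of 16 families in each library in RPM on a log axis, root libraries (brown) left of shoot libraries (green) and lines at the means. miR166 and miR168 lead in both organs, miR5168 is between 75.5 and 122 RPM in roots and between 4503 and 5205 RPM in shoots, and miR6300 and miR8175 lie above shoots in every root library.

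Families tied to mineral nutrition were also lower in roots per library total, though not all beyond the general gap. Of 5 copper families 3 were tested and all 3 were lower in roots per library total (70.8% over all 65 families), 2 of them also with TMM factors (27.7% over all 65), with a median log2 of -4.31. These families are induced by copper shortage and act on copper proteins. miR408, which targets plantacyanin and laccase mRNAs, had 1.14, 2.60 and 2.41 RPM in roots, against 37.5, 51.7 and 30.4 RPM in shoots (log2 -4.31 ± 0.41, adjusted p = 1.9e-20, edgeR), and -2.46 with TMM factors. miR397, which targets laccases, had 8.05, 14.2 and 13.7 RPM in roots, against 47.3, 71.3 and 49.8 RPM in shoots, and was not called with TMM factors. Of miR397 reads 64.1% in roots and 66.1% in shoots were labelled as precursor matches. miR528, a monocot family, had 2 reads in all roots and 122 in all shoots, a rate 45.4-fold higher in shoots (95% exact counting interval 12.3 to 379). This interval and the counting intervals below pool the libraries of an organ and leave out the spread between them. miR398 was not tested, with 0, 0.124 and 0.134 RPM in roots, against 1.57, 1.47 and 0.846 RPM in shoots.

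Both tested families of the nitrogen and sulfur list were lower in roots on both scales, against 27.7% of all 65 families, with a median log2 of -3.16. miR444, a monocot family that targets MADS-box genes of nitrate signalling, had 134, 305 and 255 RPM in roots, against 2888, 2728 and 2310 RPM in shoots (log2 -3.52 ± 0.27, adjusted p = 1.5e-29, edgeR), and -1.64 with TMM factors. miR169, which targets NF-YA transcription factors, had 9.53, 29.5 and 19.7 RPM in roots, against 116, 198 and 95.9 RPM in shoots, and -0.92 with TMM factors (adjusted p = 0.018, edgeR). miR395, induced by sulfate shortage, had 2 reads in all roots and 50 in all shoots and was not tested. Of miR444 reads 61.1% in roots and 63.7% in shoots were labelled as precursor matches, and of miR169 reads 34.3% in roots and 34.5% in shoots.

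The phosphate families miR399 and miR827 were both tested in these Pi-sufficient plants. miR399, which targets the PHO2 ubiquitin-conjugating enzyme, had 2.54, 4.08 and 5.09 RPM in roots, against 19.6, 25.6 and 12.7 RPM in shoots. Its log2 was -2.32 ± 0.38 per library total (adjusted p = 7.2e-09, edgeR) and -0.47, not called, with TMM factors. miR827, which targets SPX domain phosphate transporters, had 21.2, 27.9 and 18.6 RPM in roots, against 47.0, 47.1 and 40.2 RPM in shoots. It was lower in roots per library total (log2 -0.99 ± 0.34, adjusted p = 0.0043, edgeR) and higher with TMM factors (0.88, adjusted p = 0.024). miR2111 and miR778 had no read in the 6 libraries.

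The phase change pair miR156 and miR172, which act in sequence in the change from juvenile to adult growth, was lower in roots per library total only. miR156, which targets SPL transcription factors, had 182, 186 and 168 RPM in roots, against 986, 878 and 966 RPM in shoots (log2 -2.40 ± 0.28, edgeR). miR172, which targets AP2 factors, had 3.24, 1.98 and 4.15 RPM in roots, against 25.05, 11.8 and 14.8 RPM in shoots (log2 -2.46 ± 0.39, edgeR). Neither was called with TMM factors. Of the 4 meristem and growth families, miR396, which targets growth-regulating factors, was lower in roots on both scales, with 124, 149 and 145 RPM in roots, against 1506, 1228 and 1170 RPM in shoots (log2 -3.23 ± 0.28, adjusted p = 1.8e-23, edgeR). Of its reads 50.2% in roots and 58.0% in shoots were labelled as precursor matches. miR394 and miR164 were lower per library total, by log2 values of -2.58 ± 0.40 and -1.45 ± 0.39, and not called with TMM factors, at -0.72 and 0.36. miR171, which targets GRAS transcription factors of meristem maintenance, was not called per library total, with 65.9, 151 and 87.8 RPM in roots, against 100.2, 97.6 and 89.7 RPM in shoots (log2 0.08 ± 0.32). It was higher in roots with TMM factors (log2 1.97), and without root 17 its log2 per library total was -0.32.

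Of 17 cereal families 12 were tested and 11 were lower in roots per library total, 4 of them on both scales: miR530, miR6196, miR5168 and miR9773. Over all 65 families 70.8% were lower per library total and 27.7% on both scales. The list's median log2 was -2.33, against -1.98 over all 65. miR530 had 1 read in all roots and 220 in all shoots, a rate 164-fold higher in shoots (95% exact counting interval 29.1 to 6491). miR6196 had 2 reads in roots and 210 in shoots, a rate 78.1-fold higher in shoots (interval 21.3 to 649). miR9773 had 1.14, 0.371 and 0.669 RPM in roots, against 8.42, 7.35 and 13.2 RPM in shoots. The abundant barley family miR5048 had 915, 513 and 702 RPM in roots, against 2200, 2033 and 2602 RPM in shoots, and miR9662 had 159, 190.3 and 187 RPM in roots, against 743, 638 and 563 RPM in shoots. Both were lower per library total and not called with TMM factors, as were miR1432, miR5051, miR1862, miR5200 and miR6213 (log2 between -1.33 and 0.25), while miR5049 was not called per library total (log2 -0.62, and -0.81 with a call when root 16 was left out) and higher with TMM factors (1.23).

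Of the 15 families higher in roots on both scales 5 came from the list resembling structural RNA and none from the other 10 lists. Of the 9 families of that list tested 5 were higher and 3 lower per library total, against 23.1% higher and 70.8% lower over all 65, with a median log2 of 1.24. miR6300 had 1475, 1827 and 1371 RPM in roots, against 77.2, 77.1 and 114 RPM in shoots (log2 4.12 ± 0.29, adjusted p = 1.8e-32, edgeR). miR8175 had 185, 176 and 319.6 RPM in roots, against 45.5, 50.4 and 42.6 RPM in shoots (log2 2.30 ± 0.32, edgeR). miR9779, miR9777 and miR5083 were higher by log2 values of 3.14, 3.38 and 1.24. In roots 96.2, 94.8 and 99.7% of their reads, in the same order, were labelled as precursor matches. A 19 nt read of miR8175 had the largest rise of any sequence at 5 RPM or more, with 17.8, 11 and 24.5 RPM in roots, against 0.149, 0.0816 and 0.188 RPM in shoots (log2 6.89 ± 0.52, adjusted p = 7.9e-10, edgeR). A 24 nt read of miR9779, with 16.4, 4.33 and 9.64 RPM in roots, against 0.224, 0.408 and 0.282 RPM in shoots, was also among the 6 largest. miR5368 was lower in roots, with 0.700, 1.73 and 1.87 RPM in roots, against 33.8, 53.2 and 41.1 RPM in shoots, and miR1511 and miR5072 were also lower per library total, the second of them higher with TMM factors (log2 -0.74 and 1.09). miR5072 lost its call per library total without root 16 or without any shoot library, at log2 values between -0.82 and -0.45. miR894 was not called per library total, with 306, 224 and 199 RPM in roots, against 232, 284 and 256 RPM in shoots, and higher with TMM factors (log2 1.76). miR5054, outside the list, had 61.7, 73.4 and 97.6 RPM in roots, against 19.98, 22.9 and 17.3 RPM in shoots.

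The other 9 were families numbered from miR6177 to miR6250, all under 10 RPM. The 5 largest rises outside the lists at 1 RPM or more were miR6193, miR6195, miR6209, miR6214 and miR6186, each between 1.47 and 4.29 RPM in every root library and at most 0.245 RPM in a shoot library. miR6193, for example, had 56 reads in all roots and 2 in all shoots, a rate 37.7-fold higher in roots (95% exact counting interval 9.95 to 318.6). Their reads were spread over many sequences. The 72 root reads of miR6195 lay on 55 sequences, of which the most frequent held 6.94%, and 97.2% of those reads were labelled as precursor matches. miR6250 and miR6177 were less spread, with 52.7 and 46.9% of their root reads on 1 sequence. The 5 largest falls outside the lists were miR5566, miR5052, miR6201, miR4995 and miR6191. miR5566 had 0.175, 0.247 and 0.803 RPM in roots, against 13.3, 15.2 and 7.52 RPM in shoots, and miR6201 had 0.175, 0.865 and 0.535 RPM in roots, against 18.4, 13.0 and 10.5 RPM in shoots.

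Of the 404 sequences tested, 288 (71.3%) were lower and 63 (15.6%) higher in roots per library total, and 142 (35.1%) were lower and 113 (28.0%) higher with TMM factors. In RPM 355 of them (87.9%) had no overlap between organs. Whether a member moved apart from its family was then tested with the family's summed reads as the reference, which does not depend on the library total. Of 390 sequences in 36 families, 98 (25.1%) were higher in roots within their family and 51 (13.1%) lower. They belonged to 22 families, and 14 families held members in both directions.

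In miR171, whose family levels overlapped between the organs, different members and different arms led in root and shoot. miR171a from the 3′ arm, the guide against GRAS factors, had 44.8, 108 and 58.9 RPM in roots, against 4.32, 4.90 and 4.32 RPM in shoots (log2 3.96 ± 0.36, adjusted p = 1.1e-08, edgeR). miR171d from the 5′ arm had 1.05, 0.989 and 1.47 RPM in roots, against 44.1, 49.2 and 45.02 RPM in shoots (log2 -5.30 ± 0.36, adjusted p = 2.3e-10, edgeR). miR171a made up 68.8 ± 2.2% of the family's reads in roots and 4.72 ± 0.36% in shoots, and miR171d 1.31 ± 0.57% in roots and 48.2 ± 3.7% in shoots (SD, n = 3 each). Relative to the family the log2 values were 3.89 and -5.37 (adjusted p = 3.1e-15 and 6.2e-20, edgeR). Of the reads of the family that match a mature miRNA, 1.94 ± 1.16% came from the 5′ arm in roots and 78.5 ± 1.0% in shoots. The 3′ arm read shared by miR171d and miR171b had 2.89, 6.30 and 7.496 RPM in roots, against 12.5, 9.55 and 10.7 RPM in shoots, a log2 of -0.99 per library total and 0.64 with TMM factors. Among the 5 most abundant reads with none in any root library were 2 shifted forms of miR171d, the higher at 3.13, 2.53 and 1.97 RPM in shoots, at least 22.9-fold higher than the limit of 3 reads over the 3 root libraries.

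Of the 11 families in which arms could be compared, 5 had no overlap between organs. In miR156 the 5′ arm, which holds the guide, gave 79.2 ± 5.3% of mature reads in roots and 91.1 ± 1.0% in shoots. In miR167 it gave 92.3 ± 1.2% in roots and 94.5 ± 0.7% in shoots, and in miR159 99.4 ± 0.1% in roots and 99.1 ± 0.1% in shoots, gaps much narrower than that of miR171. Each of the 5 reached an adjusted exact permutation p of 0.22 (n = 3 each).

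**Figure D4:**
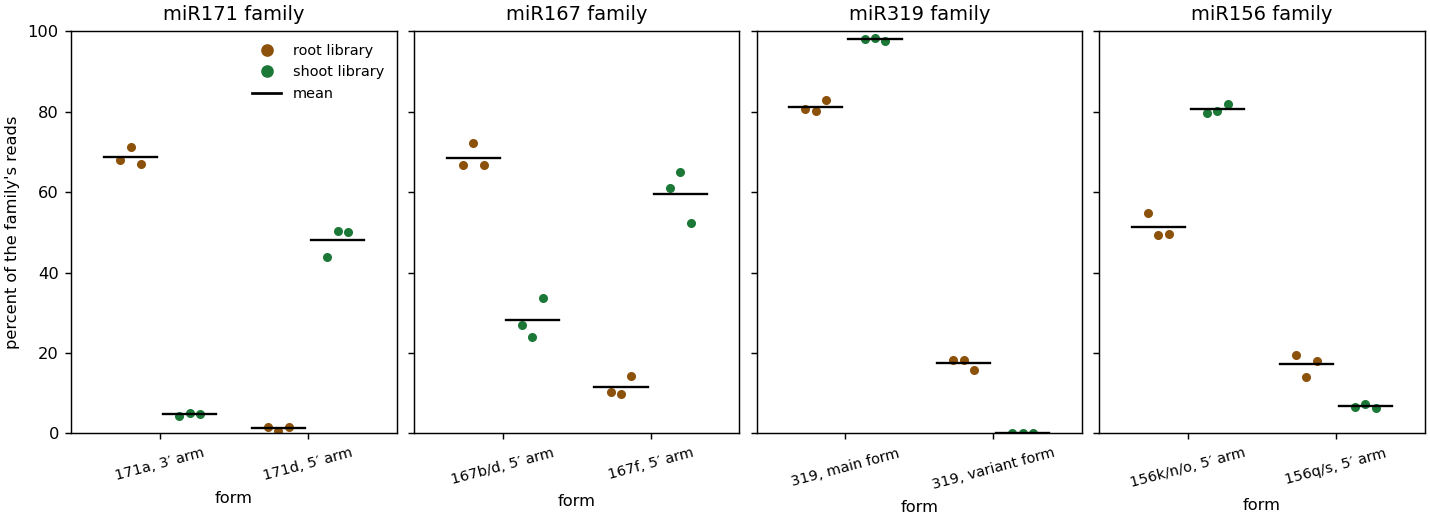
Share of a family's reads held by named members, in percent, for each library (root, brown, left; shoot, green, right; lines are means). miR171a and miR171d exchange places between organs, miR167b/d leads in roots and miR167f in shoots, and the miR319 variant form is near 0 in shoots.

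miR167 exchanged its leading member by a change of the last base. miR167b/d had 242, 463 and 401 RPM in roots, against 1324, 918 and 1100 RPM in shoots, while miR167f had 37.4, 62.3 and 86.3 RPM in roots, against 3002, 2496 and 1713 RPM in shoots. The mean of miR167f was thus 38.8-fold and that of miR167b/d 3.02-fold higher in shoots, and with TMM factors the log2 root over shoot was -3.64 for miR167f and 0.05, not called, for miR167b/d. Within the family miR167b/d rose in roots by a log2 of 1.33 and miR167f fell by 2.35 on the log2 scale (adjusted p = 0.00072 and 3.1e-09, edgeR). miR167b/d was 68.6 ± 3.1% of miR167 reads in roots and 28.1 ± 5.0% in shoots, miR167f 11.5 ± 2.5% in roots and 59.5 ± 6.5% in shoots. A shorter precursor read of miR167f fell with it, by 2.36 relative to the family.

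miR160 was divided in the same way. miR160e had 0.437, 0.124 and 0.268 RPM in roots, against 20.5, 21.7 and 14.6 RPM in shoots, and miR160a/b/c, which differs by a single base, had 2.45, 5.44 and 5.49 RPM in roots, against 11.2, 13.2 and 10.8 RPM in shoots. Relative to the family the first fell by 1.98 and the second rose by 2.57 on the log2 scale (adjusted p = 0.0017 and 3.6e-09, edgeR). A second miR160e read, a match to its precursor, had 0.612, 0.494 and 0.803 RPM in roots, against 58.5, 50.3 and 27.5 RPM in shoots, among the 6 largest falls of all sequences. In miR169 the leading read changed as well. miR169d, first in shoots, had 0.787, 1.24 and 0.937 RPM in roots, against 32, 45.3 and 20.2 RPM in shoots, and fell within its family by 1.91 on the log2 scale. miR169c, first in roots, had 1.75, 6.55 and 1.34 RPM in roots, against 15.2, 29.2 and 12.9 RPM in shoots, and was not called within the family. miR1432 and miR894 also had a different leading read in each organ, but these 2 pairs differ only by a base at the 5′ end. The longer read of miR1432, first in roots, had 7.96, 15.9 and 14.9 RPM in roots, against 58.3, 29.1 and 19.5 RPM in shoots, and the longer read of miR894 had 93.1, 69 and 64.5 RPM in roots, against 60.4, 76.2 and 63.8 RPM in shoots. Neither was called within its family, while the shorter miR894 read fell within it by 0.86 (adjusted p = 0.041, edgeR).

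miR319 carried a variant form that, added over every length, had at most 2.31 RPM in a shoot library. The main form had 169.6, 206 and 186 RPM in roots, against 1119, 854 and 588 RPM in shoots. The variant form of the same length had 11.5, 13.5 and 7.09 RPM in roots, against 0.671, 0 and 0.282 RPM in shoots, and relative to the family the main form fell by 0.96 while the variant rose by 6.21 on the log2 scale (adjusted p = 0.024 and 1.5e-21, edgeR). A 21 nt variant read, named miR319c/e, was at 36.7, 34.98 and 31.1 RPM in roots, against 0.895, 0.327 and 0.282 RPM in shoots, and another, named miR319a/b, at 23.1, 19.9 and 22.6 RPM in roots, against 0.596, 0.327 and 0.282 RPM in shoots. Added over every length, 31 sequences with the variant base had 83.6, 86.3 and 74.8 RPM in roots, against 2.31, 0.735 and 0.940 RPM in shoots, or 17.5 ± 1.5% of miR319 reads in roots and 0.119 ± 0.049% in shoots. The 39 sequences with the main base had 367, 377 and 394 RPM in roots, against 1378, 1068 and 738 RPM in shoots. Of the 5 most abundant reads with none in any shoot library 3 were further miR319 variants, at least 18.3-fold to 29.2-fold higher in roots than the limit of 3 reads over the 3 shoot libraries.

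miR444, lower in roots as a family, held the member with the largest rise relative to its family. The miR444a/e read had 9.27, 11.5 and 12.7 RPM in roots, against 0.373, 0.163 and 0 RPM in shoots (log2 5.78 ± 0.54, and 9.33 relative to the family, adjusted p = 6.6e-36, edgeR). The leading miR444c read had 63.8, 143 and 121 RPM in roots, against 1544, 1620 and 1281 RPM in shoots. Both were labelled as precursor matches, and the miR444a/e read ends with the bases that begin another miR444 read, tGCAGTTGctgcctcaagctt. In miR156 the leading miR156k/n/o read had 99.6, 91.7 and 83.4 RPM in roots, against 786, 703 and 792 RPM in shoots, and miR156q/s, which starts 1 base later, had 35.3, 26.1 and 30.3 RPM in roots, against 64.8, 64.3 and 60.3 RPM in shoots. miR156q/s rose within the family (log2 1.49, adjusted p = 0.00013, edgeR), to 17.2 ± 2.8% of its reads in roots, against 6.72 ± 0.55% in shoots. A 3′ arm read of miR156a/e was higher in roots per library total as well, with 3.15, 7.91 and 5.35 RPM in roots, against 2.61, 2.37 and 1.41 RPM in shoots.

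Short and full-length members were counted apart. Among 168 sequences of 18 to 20 nt tested within their families, 47 were higher in roots and 11 lower, against 45 higher and 35 lower among 189 of 21 and 22 nt, beside 25.1% higher and 13.1% lower over all 390. No test compared the length classes, and the median log2 relative to the family was 0.27 for the first and -0.09 for the second. Shortened miR168 had 24.2, 82.2 and 58.8 RPM in roots, against 5.22, 10.4 and 6.39 RPM in shoots, while full miR168 had 5407, 3707 and 4476 RPM in roots, against 15830, 16722 and 12733 RPM in shoots. Shortened miR159 of 18 nt had 236, 148 and 203 RPM in roots, against 33.3, 29.3 and 31.4 RPM in shoots, while full miR159b had 983, 447 and 828 RPM in roots, against 3079, 2660 and 2361 RPM in shoots. Relative to the family these shortened reads rose by log2 values of 4.55 and 3.93 (adjusted p = 2.1e-21 and 9.5e-14, edgeR).

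For the most abundant sequence of 15 families, the share of reads that ended 1 or more bases early was then computed in each library, a measure chosen after the data were seen. It was higher in roots in 13 of the 15 by the mean and without overlap in 8, and no sequence was lower in roots without overlap. For miR159 the shortened share was 33.0, 44.6 and 34.0% in roots, against 5.57, 5.49 and 6.18% in shoots. For miR9662 it was 22.7, 22.5 and 21.4% in roots, against 13.9, 15.2 and 14.4% in shoots, for miR168 it was 1.92, 6.87 and 4.76% in roots, against 1.37, 1.38 and 1.66% in shoots, and for miR166 it was 0.240, 0.226 and 0.312% in roots, against 0.159, 0.150 and 0.171% in shoots. miR5168 and miR165 overlapped between organs. Each sequence without overlap had an adjusted exact permutation p of 0.188 (n = 3 each). miR159b shares its first 20 bases with another miR159 read, from which it differs by G21T, so their shortened reads cannot be told apart. miR167f was left out, since its reads lose the base that separates them from miR167b/d.

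**Figure D5:**
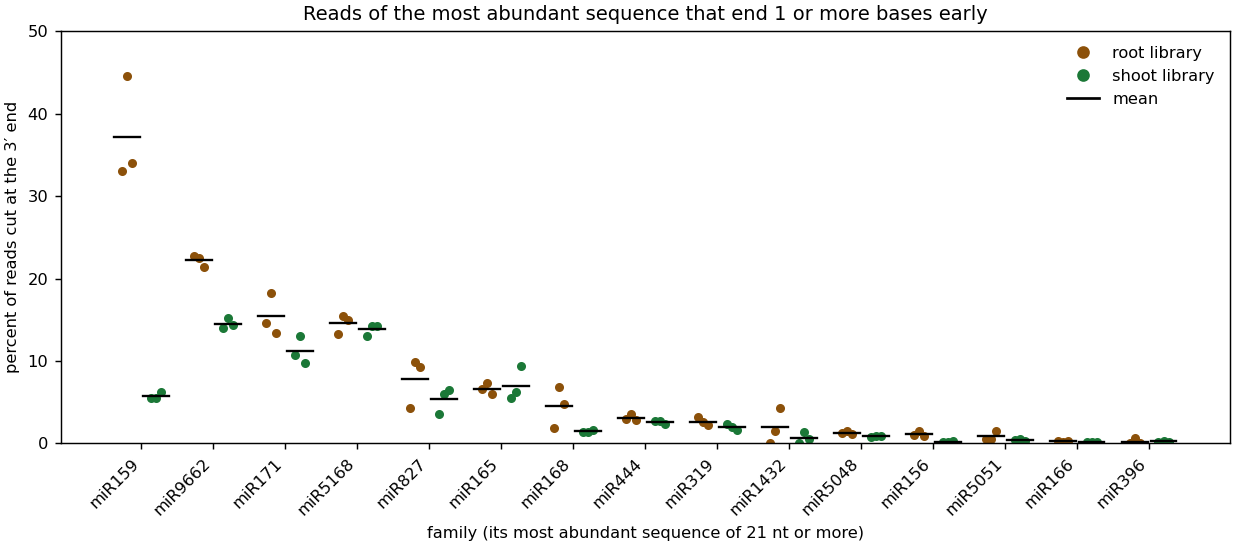
For the most abundant sequence of 15 families, the percent of its reads that end 1 or more bases early at the 3′ end, in each library (root, brown, left; shoot, green, right; lines are means). miR159 has the widest gap, with 33.0 to 44.6% in roots and 5.49 to 6.18% in shoots, followed by miR9662 with 21.4 to 22.7% in roots and 13.9 to 15.2% in shoots.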

How the data were processed

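Small RNA of 15 to 30 nt was gel-purified and sequenced from 3 root and 3 shoot samples grown with sufficient Pi. Per the methods, the authors trimmed reads in CLC Genomics Workbench, kept 18 to 25 nt, collapsed identical reads and annotated them to miRBase release 22 without mismatches. The deposited tables give counts per sequence and an RPM value made by the authors from each count. Of 36 per-sample columns in the 2 tables, 24 were not used: the low Pi libraries and values not needed here. The tables also hold the authors' comparisons of low Pi with control (fold changes and p-values), which were not used.

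Library totals were recovered as count divided by RPM times 1000000. A sequence missing from an organ's table was taken as 0. The smallest total over the 2 tables together was 1 read, which does not show that each of them lists such sequences. Families and sequences were tested with edgeR 4.0.16 (R 4.3.3, quasi-likelihood) with these totals as library sizes, after filterByExpr at a minimum count of 10, with Benjamini-Hochberg adjustment over all tested. Members were tested against their family with diffSpliceDGE. Shares were compared with exact two-sided permutation tests (SciPy 1.17.1). Alternatives were TMM factors, totals of miRBase reads, DESeq2 1.42.0, other filters, sequences in both tables, mature matches only, the replicate number as a block and leaving out each library. Features were chosen for naming by a rule: all tested families of 11 lists, the 5 largest rises and falls outside them at 1 RPM or more, and, among sequences at 5 RPM or more, the 6 largest changes, the 5 largest relative to the family, changes of the leading sequence and the most abundant reads of a single organ, with the leading sequence of each listed family. Other reads were chosen after their values were seen. The members and lists were chosen with earlier results of these data known. No barley miRNA or genome sequence was used here, so sequences have no coordinates. P-values rest on the spread between libraries, in which pots and library preparation cannot be told apart. In the edgeR test of families that spread came from a fit over all families tested, not from each family alone.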

Additional observations from a re-analysis of the deposited data

How the results depend on the processing

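Most of the counts depended on the scale of the libraries. Families higher in roots numbered 15 on the library totals, 24 under TMM scaling, 33 with totals of miRBase reads, 34 with those totals without the list resembling structural RNA, 37 with no filter, 6 at a minimum count of 50, 8 with sequences listed in both tables and 5 with mature matches only. The last 4 settings change which families or reads enter. Those lower in roots numbered 46 on the library totals, 18 under TMM scaling, 18 with miRBase totals and 17 with those totals without the list. For sequences, 63 were higher per library total, 113 with TMM factors, 150 with miRBase totals, 110 with no filter and 29 at a minimum count of 50, and 288 were lower per library total, 142 with TMM factors, 114 with miRBase totals and 160 at a minimum count of 50. Within families 56 were higher and 28 lower at a minimum count of 50. DESeq2 left every named family and sequence on its side of the threshold. The 10 largest changes relative to the family kept direction and call under TMM factors, a minimum count of 50, sequences listed in both tables and each library left out.

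Per library total these families had a negative log2, and it turned positive with TMM factors, with miRBase totals and with miRBase totals without the list, in that order: miR827 (0.88, 0.83, 1.01), miR165 (1.10, 1.07, 1.26), miR159 (0.54, 0.49, 0.67), miR319 (0.66, 0.62, 0.80), miR164 (0.36, 0.37, 0.54), miR168 (0.20, 0.16, 0.33), miR5048 (0.13, 0.089, 0.26), miR5049 (1.23, 1.17, 1.35), miR5051 (0.25, 0.20, 0.39), miR5072 (1.09, 1.07, 1.26) and miR894 (1.76, 1.71, 1.88). Under the first and the last of these scales it turned for miR9662 (0.0013, 0.14), miR1432 (0.012, 0.17) and miR6213 (0.023, 0.13), and under the last for miR166 (0.016). miR894 was at 0.40 with mature matches only. Leaving out each library in turn moved miR894 between -0.28 and 0.044, the higher without root 18, and miR171 between -0.32 and 0.32, the lower without root 17. With TMM factors and miRBase totals the leading reads turned positive for miR827 (0.31, 0.48), miR165a/b (0.93, 1.10), miR164b/c (0.78, 0.94), miR5051 (0.033, 0.22), the longer miR1432 read (0.20, 0.39), miR167b/d (0.047, 0.23) and the shorter miR894 read (0.71, 0.85), and with miRBase totals alone for miR168 (0.062) and miR5048 (0.093). The longer miR894 read lay between -0.0015, without root 16, and 0.28.

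Without the list resembling structural RNA the root minus shoot difference turned for 24 nt reads (-0.0909 percentage points), for reads beginning with T (0.681) and for exact mature matches (-2.08). Leaving out each library in turn gave 16 to 19 families higher and 46 to 54 lower, 66 to 80 sequences higher and 281 to 328 lower, 89 to 101 within families higher and 40 to 53 lower. The root minus shoot difference in exact mature matches then lay between -1.08 and 1.24 points, in length variants between -0.452 and 1.91 and in the 5′ arm share of miR444 between -0.159 and 0.459, all 3 pairs overlapping between organs.

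With the replicate number as a block, 15 families were higher and 45 lower, 63 sequences higher and 277 lower, and 88 and 43 within families, miR171 was at -0.0023 and miR5072 was no longer called (-0.80). Deviations of root and shoot libraries with the same number correlated at -0.23, 0.15 and -0.19 over families, and those with unlike numbers between -0.26 and 0.39. Pairing was thus not seen, but so few libraries cannot exclude a shared pot. In roots the level of 3 reads over the 3 libraries, 0.111 RPM, limits every family with only a few root reads.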
